A study of Mus musculus with 13 samples.

Results

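Rectal adenocarcinomas of mice were compared with the inflamed mucosa that lay beside them in the same kind of prolapse. The comparison covers 9 of the 13 arrays of the series, chosen by their labelled tissue: 5 adenocarcinomas (numbers 1, 2, 3, 4 and 6) and 4 samples of inflamed rectal mucosa (numbers 1 to 4). All 9 came from α6fl/fl Villin-Cre mice, in which the Itga6 gene is flanked by recombination sites and Cre is driven by the villin promoter, active in intestinal epithelial cells. By their labels both tissues carry the same alleles, and neither includes an animal without them. The adenocarcinomas came from mice of 53 weeks (number 1, female), 60 weeks (numbers 2 and 3, both male), 64 weeks (number 4, male) and 80 weeks (number 6, female). The inflamed samples 1 to 4 have the sex and age of the adenocarcinoma of the same number. The other 4 arrays hold normal rectal mucosa scraped from control mice of 53, 60, 64 and 70 weeks and enter here only as a shared estimate of spread and as background levels. For those 4 the labels say control in one field and α6fl/fl Villin-Cre in another. Each tumour and each inflamed sample was cut from thick frozen sections after a pathologist had located the carcinomas, so cells of the stroma, muscle and blood were included along with epithelium.

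Itga6 encodes the α6 chain of the laminin receptor α6β4, which anchors the basal side of epithelial cells to the basement membrane through hemidesmosomes. The colonic surface is normally lined by mature absorptive cells that take up sodium, chloride and water, with mucus-secreting goblet cells between them. Inflamed mucosa holds neutrophils, macrophages and lymphocytes, and a carcinoma adds a reactive stroma in which matrix proteins are laid down and cut by metalloproteinases. A comparison of a tumour with its inflamed surroundings asks what differs between carcinoma and a tissue that is already inflamed.

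RNA was measured on Affymetrix Mouse Gene 1.0 ST arrays, and all values are log2 values after RMA, the summary of probe brightness that the authors deposited. A difference of 1 on this scale is a 2-fold change of the signal. Values here are not absolute amounts of RNA, and levels of different genes are not set against each other. Transcripts that should be absent because of the animal's sex read up to 5.56, so values below about that level may hold no transcript. In tissue of mixed cells, fewer cells of a type and less RNA per cell cannot be told apart.

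Of 19938 genes, 1420 were called different between adenocarcinoma and inflamed mucosa at an adjusted p below 0.05 (limma, Benjamini-Hochberg over all genes), or 7.12% of those tested. Of these, 581 were higher in the tumours (2.91% of all genes) and 839 were lower (4.21%). With arrays centred on their medians the split was 728 higher and 694 lower. At least 2-fold differences were found for 409 called genes (2.05%), 140 of them higher and 269 lower. The difference was below 0.5 for 90.9% of all genes. An unadjusted p below 0.05 (limma) was found for 3882 genes (19.5%). In 1266 of the called genes the tumour and inflamed arrays did not overlap, against 2347 of all genes (11.8%). With the title number as a block, each tumour was set against the inflamed mucosa of the same number. In that fit 1907 genes were called, and 1210 of them were among the 1420. The block fit left out the normal arrays, and the same 9 arrays without a block gave 1671 calls. With the number of tumour and inflamed arrays as a random block in the fit of all 13 arrays, each normal array standing alone, 2279 were called, 938 higher and 1341 lower, and with arrays weighted by their fit 2296. Without inflamed sample 2 the count was 775 and without inflamed sample 4 it was 857, and leaving out any other single array gave 949 to 1652. The count of higher genes was 302 to 382 without tumour 2 or 6 or inflamed sample 2, 3 or 4.

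**Figure D1:**
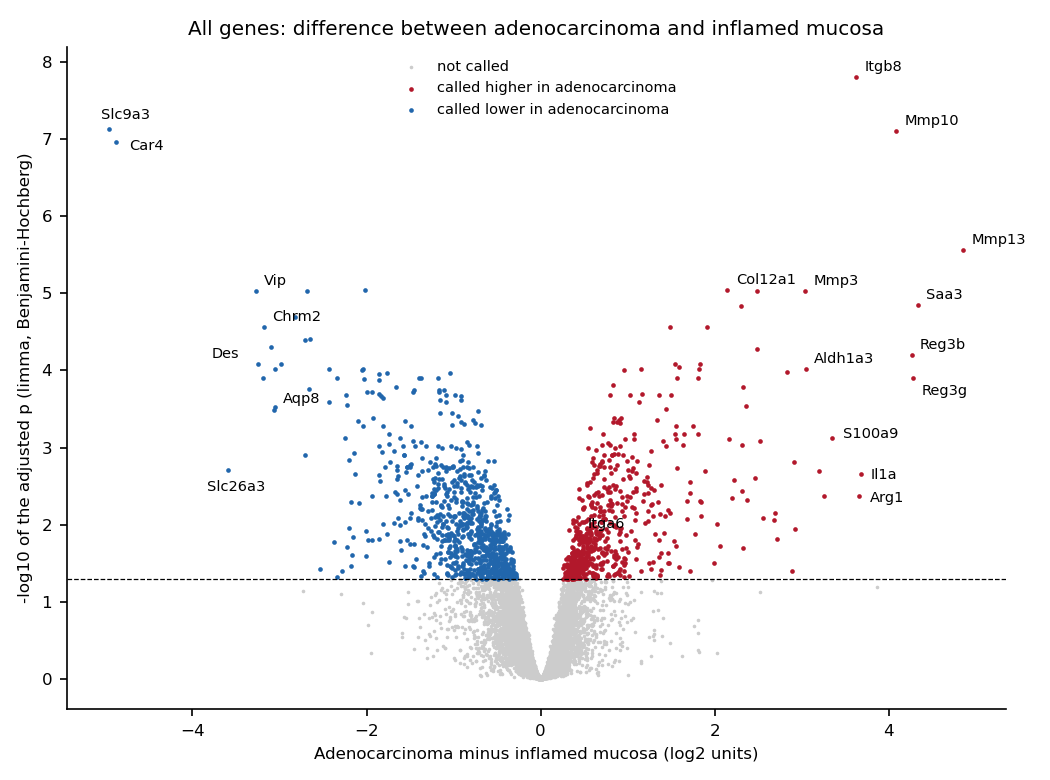
Difference between adenocarcinoma and inflamed mucosa of 19938 genes in log2 units (horizontal axis) against minus log10 of the adjusted p (vertical axis), each point a gene. The dashed line marks an adjusted p of 0.05, red points are the 581 genes called higher, blue points the 839 called lower, and Itgb8, Mmp10, Slc9a3 and Car4 have the smallest adjusted p.

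The labels were checked against markers of the tissue. The mean level of 16 markers shared by all intestinal epithelium (such as Epcam, Cdh1 and Cdx2) was 11.37 to 11.49 in the 5 tumours, 11.19 to 11.40 in the 4 inflamed samples and 11.38 to 11.64 in normal mucosa, so epithelial transcripts were abundant in every array. Smooth muscle transcripts did not follow that pattern. The mean level of 14 smooth muscle markers was 8.18 to 8.48 in tumours, 9.64 to 10.68 in inflamed samples and 6.47 to 7.67 in normal mucosa, with every inflamed array above every tumour. When this mean was added to the fit of the 9 arrays as a covariate, 0 genes were called by limma and 790 had an unadjusted p below 0.05. The muscle level separates the tissues completely, so a difference between the tissues and a difference in muscle content cannot be told apart by that fit. It also turned the sign of 25 of the 127 called genes named here, Tgfb3, Snap25 and Penk among them. A second feature cut across the groups: Krt5, a keratin of squamous epithelium such as the anal lining, read 11.17 in tumour 2, 10.70 in tumour 3 and 12.10 in normal sample 1, and at most 7.38 in every other array. Without these 3 arrays 1139 genes were called, 478 higher and 661 lower. The first principal component of the 9 arrays held 50.2% of the variance and put the tumours between -39.2 (tumour 6) and -9.1 (tumour 3) and the inflamed samples between 15.3 and 37.4.

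The targeted gene and its partners were measured first. Itga6 read 11.50, 11.52, 11.62, 11.60 and 11.44 in tumours 1, 2, 3, 4 and 6, and 11.14, 10.90, 11.10 and 11.20 in inflamed samples 1 to 4. All tumours stood above all inflamed samples, which overlapped the 10.75 to 11.16 of normal mucosa. The difference was 0.45 ± 0.10 (SE; adjusted p = 0.0134), which missed the threshold without inflamed sample 2 (0.39, adjusted p = 0.0555) and without the 3 arrays with high Krt5 (0.42, adjusted p = 0.073). No source used here tells which exons the Itga6 probes cover, so its level does not test the deletion. Itgb4, the other chain of the receptor, was 0.59 ± 0.11 higher in tumours (adjusted p = 0.00508). Of 10 measured genes of the hemidesmosome and its laminin, 4 were called higher (40%, against 2.91% of all genes). They were Itga6, Itgb4, Itga3, the laminin-binding partner of the β1 chain, and Lamb3, a chain of laminin-332. The count was 5 with the fixed block, 6 with the random block and 7 with weighted arrays. It was 3 without inflamed sample 2 or without the 3 arrays with high Krt5. Itga3 rose by 0.65 ± 0.10 and Lamb3 by 0.81 ± 0.15.

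Itgb8 had the smallest adjusted p of all 19938 genes. This integrin chain pairs with αv and binds the latent form of TGF-β, releasing its activity. Itgb8 read 10.02, 10.36, 9.96, 10.53 and 10.17 in the tumours, and 6.89, 6.68, 6.57 and 6.19 in the inflamed samples. The tumours were tightly grouped, the inflamed samples lay in or below the 6.74 to 7.05 of normal mucosa, and the groups were far apart. The difference was 3.62 ± 0.15, or 12.3-fold (adjusted p = 1.57e-08). Its partner Itgav rose by 0.88 ± 0.16 and Itga2, a collagen receptor chain, was 2.83-fold higher (adjusted p = 0.00021). Itga8, which is expressed in smooth muscle and other mesenchymal cells, fell by 1.76 ± 0.19. These were the 3 higher and 1 lower calls among 16 integrin genes outside the hemidesmosome (18.8% and 6.25%, against 2.91% and 4.21% of all genes).

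Matrix metalloproteinases are secreted or membrane-bound enzymes that cut matrix proteins. Of 16 measured, 7 were called higher (43.8%, against 2.91% of all genes): Mmp13, Mmp10, Mmp3, Mmp8, Mmp9, Mmp14 and Mmp12. Mmp13, a collagenase, read 11.47, 11.64, 10.78, 11.51 and 12.12 in the tumours, against 7.79, 5.87, 6.15 and 6.79 in the inflamed samples. Inflamed sample 1 was the highest of its group and still far below the lowest tumour, number 3. The difference of 4.86 ± 0.32 (29.0-fold; adjusted p = 2.72e-06) was the largest rise among the called genes. Mmp10, a stromelysin made by epithelial cells at wound edges, read 10.72, 11.11, 10.19, 10.999 and 11.19 in the tumours and 7.31, 6.39, 6.57 and 6.75 in the inflamed samples. It rose by 4.09 ± 0.20 (17.0-fold; adjusted p = 7.88e-08). Mmp3, the stromelysin of stromal fibroblasts, rose by 3.04 ± 0.24, from 6.31 to 7.08 across the inflamed samples to 9.34 to 10.50 across the tumours. Mmp8 and Mmp9 are stored in neutrophil granules and rose by 3.20 ± 0.51 and 1.81 ± 0.19. Mmp14, a membrane-bound collagenase, rose by 0.83 ± 0.14. Mmp7, an epithelial enzyme, ranged from 7.55 to 10.13 in tumours and 7.20 to 8.32 in inflamed samples, a difference of 1.38 with an adjusted p of 0.0757. It was called with the random block (1.33, adjusted p = 0.0313), with weighted arrays (1.60, adjusted p = 0.015) and without tumour 1 (1.75, adjusted p = 0.0119).

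Metalloproteinase genes are neighbours on mouse chromosome 9, where they stand in the order Mmp13, Mmp12, Mmp1b, Mmp3, Mmp1a, Mmp10, Mmp8, Mmp27, Mmp20 and Mmp7. Calls were interleaved with silent genes: Mmp1b, Mmp1a, Mmp27 and Mmp20 had group means between 3.72 and 5.39 in both tissues, all below the level that absent transcripts reached. The promoter stretches of Mmp13, Mmp10 and Mmp3 are shown because they are the 3 with the largest rises among the metalloproteinases that hold the site TGANTCA of the AP-1 factors. Mmp8, whose rise was larger than that of Mmp3, is not among the genes with a match. The sequences are from RefSeq (GRCm38.p6), 120 bases upstream of the annotated start, 5′ to 3′, with the AP-1 site in capitals:

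Mmp13 (chr9:7272394-7272513, + strand): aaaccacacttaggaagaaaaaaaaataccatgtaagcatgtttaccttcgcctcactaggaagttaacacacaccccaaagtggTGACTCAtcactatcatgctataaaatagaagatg

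Mmp10 (chr9:7502222-7502341, + strand): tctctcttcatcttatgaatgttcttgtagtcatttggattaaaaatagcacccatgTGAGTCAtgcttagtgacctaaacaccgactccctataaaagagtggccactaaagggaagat

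Mmp3 (chr9:7445702-7445821, + strand): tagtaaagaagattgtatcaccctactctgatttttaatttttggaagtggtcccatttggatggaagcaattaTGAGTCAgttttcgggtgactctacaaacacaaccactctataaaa

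The first base of the site lies at -35, -63 and -46 from the start in Mmp13, Mmp10 and Mmp3. In windows from 250 bases before to 50 bases after the start, TGANTCA (the same on both strands) was present in 7 of the 12 metalloproteinase genes that have a promoter entry (58.3%), against 8.97% of 27025 genes. The 7 include Mmp1a and Mmp1b, whose levels were low in both tissues, and Mmp7 and Mmp12. The motif was searched after the values of these genes had been seen, and a match of letters is not evidence that a factor binds there.

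Genes of the reactive stroma changed in part. Of 18 genes of tumour-type matrix, 7 were called higher (38.9%, against 2.91% of all genes), none was called lower, and the median difference was 0.32. Col12a1, a collagen that decorates fibrils under tension, read 10.24, 10.73, 10.27, 10.88 and 10.75 in the tumours and 8.16, 8.59, 8.50 and 8.45 in the inflamed samples, a rise of 2.15 ± 0.16 (adjusted p = 9.05e-06). Inhba, which encodes the activin A subunit, rose by 1.81 ± 0.19, Ltbp2 by 1.36 ± 0.16, Tnc (tenascin C) by 1.29 ± 0.25 and Lox, the enzyme that cross-links collagen, by 1.22 ± 0.20. Of 17 basement membrane genes, 5 were called higher (29.4%): Col18a1, Lama1, Col4a1, Col4a2 and Lama5, with rises from 0.80 to 1.04. That count was 8 with weighted arrays. The general fibroblast markers were split, with 4 of 16 higher (25%) and 3 lower (18.8%, against 4.21% of all genes). Col1a1 and Col1a2, the chains of collagen I, rose by 1.56 ± 0.17 and 0.85 ± 0.12 and Pdgfrb by 0.71 ± 0.14, while Lum (lumican) and Pi16, a marker of resting adventitial fibroblasts, fell by 2.18 ± 0.40 and 0.79 ± 0.15. The mean fibroblast level was 8.24 to 8.57 in tumours and 8.21 to 8.76 in inflamed samples, so the ranges overlapped. Among 11 protease inhibitors and genes of the plasminogen system, 5 were called higher (45.5%). They include Plaur, the urokinase receptor (1.84 ± 0.34), and Timp1, an inhibitor of metalloproteinases (1.32 ± 0.29). That count was 3 without tumour 2 or without inflamed sample 2, 3 or 4.

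**Figure D2:**
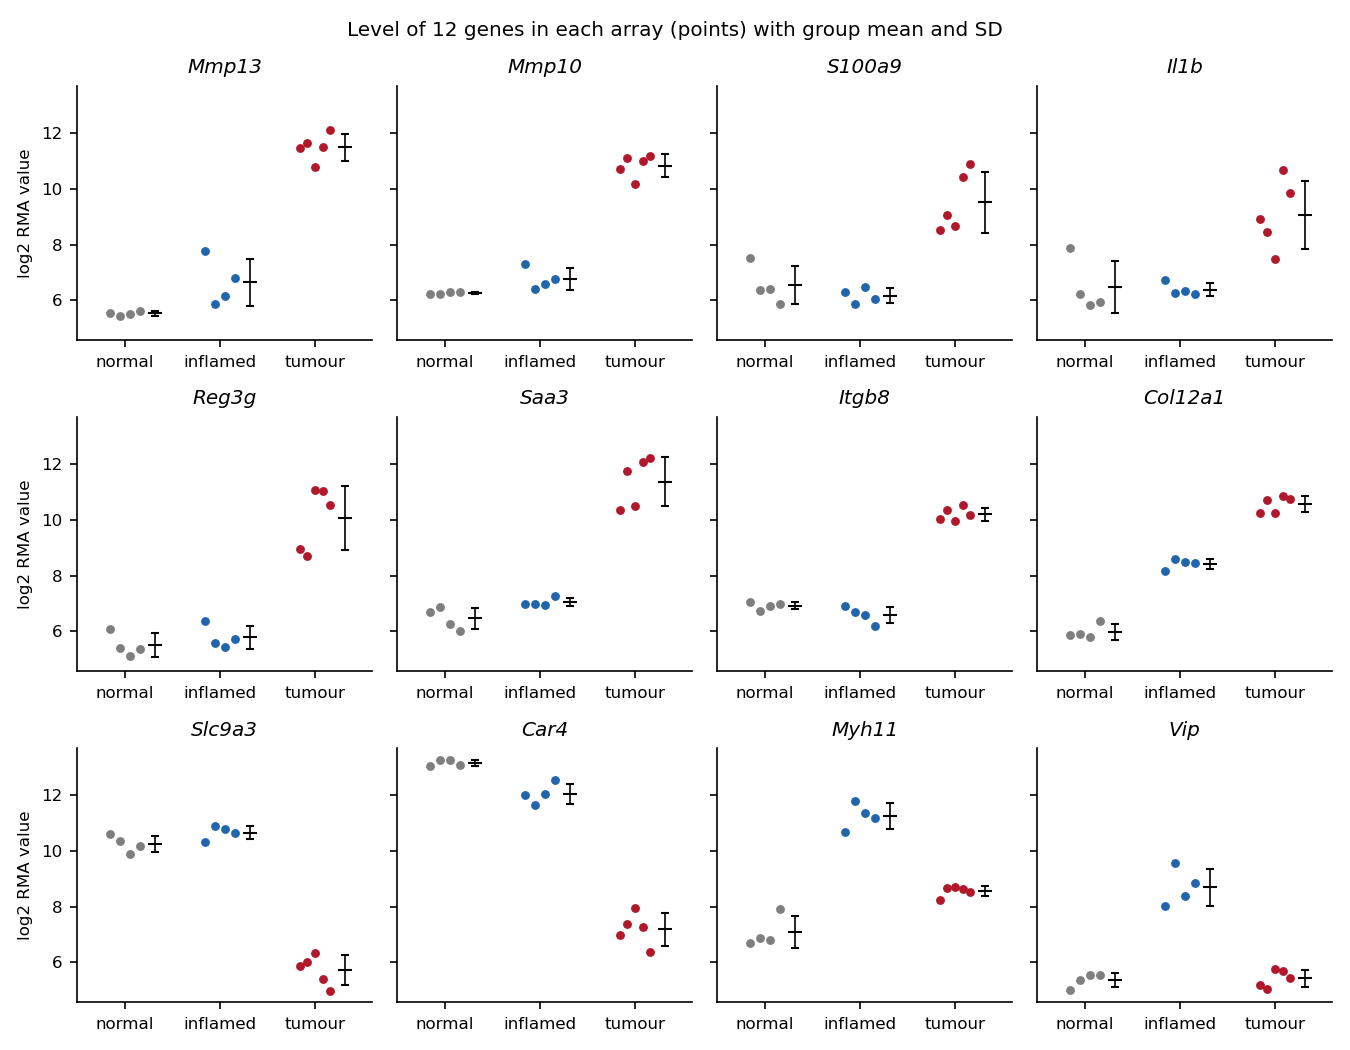
Log2 RMA value (vertical axis) of 12 genes in each array, with normal mucosa in grey (4 arrays), inflamed mucosa in blue (4) and adenocarcinoma in red (5), and the mean and SD of each group as a black bar. In all 12 panels the tumour points lie apart from the inflamed points, and S100a9, Il1b and Reg3g are more spread among tumours than among inflamed samples.

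Neutrophil transcripts were higher in the tumours than in the inflamed mucosa. Of 14 neutrophil markers, 10 were called higher (71.4%, against 2.91% of all genes), with a median difference of 1.98 (all genes: -0.01). The mean level of the list was 7.81 to 9.51 in tumours, 6.34 to 6.67 in inflamed samples and 5.915 to 7.04 in normal mucosa. Normal sample 1, at 7.04, stood above every inflamed sample, and the other normal samples stood below every inflamed sample. S100a9, a calcium-binding protein that fills the neutrophil cytoplasm, read 8.51, 9.07, 8.66, 10.42 and 10.91 in the tumours and 6.28, 5.88, 6.46 and 6.04 in the inflamed samples. Tumours 4 and 6 were the highest of their group, and the rise was 3.35 ± 0.46 (adjusted p = 0.000758). Cxcr2, the receptor for neutrophil-attracting chemokines, rose by 2.56 ± 0.51, Retnlg by 2.31 ± 0.41 and Trem1, a receptor that amplifies myeloid activation, by 2.03 ± 0.42. The decoy receptor Il1r2 rose by 1.68 ± 0.34.

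Cxcl2 and Cxcl5, chemokines that bind Cxcr2, were among the 15 largest rises. Cxcl2 read 8.09, 8.17, 6.02, 10.29 and 8.60 in the tumours and 5.33, 4.86, 4.95 and 4.78 in the inflamed samples. Tumour 3 was lowest and tumour 4 highest, and the difference was 3.25 ± 0.58 (adjusted p = 0.0042), or 4.01 without the 3 arrays with high Krt5. Cxcl5 rose by 2.91 ± 0.44, from 5.09 to 5.40 across inflamed samples to 7.23 to 9.32 across tumours. In the chemokine cluster on chromosome 5, Cxcl5, Cxcl3 and Cxcl2 were called and Ppbp, Pf4, Cxcl15 and Cxcl1 were not. Ppbp differed by 3.87 with an adjusted p of 0.0637, and its values were 11.29 and 11.71 in tumours 2 and 3, 8.10 to 8.63 in the other 3, 12.39 in normal sample 1 and 5.52 to 6.24 in the inflamed samples. Cxcl3 rose by 1.38 ± 0.37 (adjusted p = 0.0382), a call that was lost without any one of tumours 1 and 2, inflamed samples 1 to 4 and normal samples 2 and 4, with adjusted p from 0.0512 to 0.11, and also with age as a covariate (0.0533) or with the 9 arrays alone (0.0683). Of the 12 genes of this list 3 were called higher (25%, against 2.91% of all genes). The 1 called lower (8.33%, against 4.21%) was Csf1 (-0.41, adjusted p = 0.0462). The Csf1 call was lost with the fixed block (0.0515), with sex as a covariate, with median centring, without the 3 arrays with high Krt5 and without any one of tumours 1, 2, 3 and 6, inflamed samples 2, 3 and 4 and normal samples 2 and 4, with adjusted p from 0.0515 to 0.18. The higher count was 6 with the random block of numbers, and 5 without tumour 3 or without normal sample 1. Ppbp itself was called with either block (adjusted p = 0.00877 fixed and 0.0212 random).

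Both interleukin-1 genes, which are neighbours on chromosome 2, rose together. Il1a read 8.16, 7.66, 6.90, 10.15 and 8.01 in the tumours and 4.79, 4.54, 4.42 and 4.24 in the inflamed samples, where every value lay below the level reached by absent transcripts. Il1b read 8.92, 8.44, 7.49, 10.67 and 9.84 in the tumours and 6.72, 6.27, 6.34 and 6.21 in the inflamed samples. Tumour 4 was the highest and tumour 3 the lowest for both. Il1a rose by 3.68 ± 0.60 (adjusted p = 0.00222) and Il1b by 2.69 ± 0.54 (adjusted p = 0.00864), and without the 3 arrays with high Krt5 the differences were 4.27 and 3.42. Il1r2 completes the 3 genes of 13 in the interleukin-1 family that were called higher (23.1%, against 2.91% of all genes). With the number as a fixed block 7 were called higher, among them Il18 (0.73, adjusted p = 0.0035), and Il33 was called lower (-0.85, adjusted p = 0.0157). With the number as a random block, and likewise with the 9 arrays alone or without normal sample 1, 5 were called higher. Il11, a cytokine of stromal cells that signals through STAT3, rose by 1.81 ± 0.24, from 5.43 to 5.94 in inflamed samples to 6.75 to 8.16 in tumours.

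Among acute-phase and antimicrobial genes the calls were few but large. Of 26, 5 were higher (19.2%, against 2.91% of all genes) and 1 lower (3.85%, against 4.21%). Reg3b and Reg3g encode secreted lectins that bind bacteria at the epithelial surface. Reg3g read 8.94, 8.71, 11.09, 11.03 and 10.53 in the tumours and 6.37, 5.57, 5.42 and 5.73 in the inflamed samples. Tumours 1 and 2 stood below the other 3, yet both stood above every inflamed sample. Reg3g rose by 4.28 ± 0.46 (19.5-fold; adjusted p = 0.000126) and Reg3b by 4.26 ± 0.41 (19.2-fold), whereas Reg3d, Reg3a, Reg2 and Reg1, their neighbours on chromosome 6, had means between 3.90 and 5.46 in both tissues and were not called. The serum amyloid A genes on chromosome 7 went in opposite directions. Saa3 read 10.35, 11.75, 10.50, 12.08 and 12.22 in the tumours and 6.97, 6.98, 6.96 and 7.28 in the inflamed samples, a rise of 4.33 ± 0.35 (adjusted p = 1.41e-05). Saa1 read 4.35, 4.59, 6.02, 5.28 and 4.66 in the tumours and 7.52, 7.59, 7.69 and 7.76 in the inflamed samples, a fall of 2.66 ± 0.30 (adjusted p = 0.000175). Saa1 was higher still in normal mucosa, at 9.13 to 10.26. Hp (haptoglobin) rose by 2.83 ± 0.30 and Cp (ceruloplasmin) by 1.44 ± 0.18.

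Of 17 genes known from fetal and regenerating epithelium, 9 were called higher (52.9%, against 2.91% of all genes) and none lower, with a median of 1.12. With the number as a fixed or random block 12 were called higher and 2 lower, Il33 and Edn1. Ptgs2, the inducible cyclooxygenase, read 10.58, 10.96, 9.40, 10.57 and 11.25 in the tumours and 8.39, 8.32, 8.43 and 8.42 in the inflamed samples. Its rise was 2.16 ± 0.30 (adjusted p = 0.000781). Ptges, which turns its product into prostaglandin E2, rose by 0.91 ± 0.16, and Hpgd, which degrades that prostaglandin, fell by 1.11 ± 0.25 (adjusted p = 0.0155, and 0.0555 without inflamed sample 2). Clu (clusterin), a marker of regenerating crypt cells, rose by 1.84 ± 0.37, Krt7 by 0.79 ± 0.12, Msln (mesothelin) by 1.07 ± 0.20 and Phlda1 by 1.23 ± 0.25. Hbegf, a ligand of the EGF receptor, rose by 1.12 ± 0.26 and was the 1 of 12 EGF family genes called (8.33%). With the number as a fixed or random block 4 were called higher, Ereg (1.13, adjusted p = 0.00136 with the fixed block) and Egfr (0.41, adjusted p = 0.0168) among them. Without normal sample 1, or with the 9 arrays alone, the count was 3. Aldh1a3, an enzyme that makes retinoic acid, was among the 15 largest rises, at 3.05 ± 0.31.

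Crypt stem cell genes and Wnt targets were split. Of 25 measured, 2 were called higher and 2 lower (8% each, against 2.91% and 4.21% of all genes). Ccnd1 (cyclin D1) rose by 1.09 ± 0.18 and Wif1, a secreted Wnt inhibitor, by 1.34 ± 0.17. Nkd1, a feedback inhibitor of Wnt signalling, fell by 0.67 ± 0.13. Ascl2, a stem cell transcription factor, fell by 0.81 ± 0.19 (adjusted p = 0.022), a call lost without tumour 1 or 2 or inflamed sample 1, 2 or 4, with adjusted p from 0.0503 to 0.0796, or without the 3 arrays with high Krt5 (0.0821). With the fixed block 4 were higher and 4 lower, the added genes being Cd44 (0.76, adjusted p = 0.00229) and Myc (0.57, adjusted p = 0.0459) on the higher side and Lgr5 (-0.48, adjusted p = 0.0234) and Axin2 (-0.41, adjusted p = 0.0322) on the lower side. The random block and the fit without normal sample 1 each called 4 higher. Lgr5, the receptor that marks cycling crypt stem cells, read 6.17 to 7.42 in tumours and 6.74 to 7.47 in inflamed samples, so the groups overlapped. Wnt5a, a stromal Wnt ligand, rose by 1.05 ± 0.17 and Rspo3, an R-spondin that sustains stem cells, fell by 0.73 ± 0.15. These were among 2 higher and 2 lower calls in 21 Wnt ligands and secreted antagonists (9.52% each), and the lower count was 4 with the random block.

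Ligands and antagonists of the TGF-β and BMP pathways gave calls on both sides. Of 25, 6 were higher (24%, against 2.91% of all genes) and 5 lower (20%, against 4.21%). Inhba is described above. The falls were in Id4 (1.08 ± 0.13) and Id2 (0.97 ± 0.18), targets of BMP signals, Chrdl1 (1.75 ± 0.24), a BMP antagonist, Tgfb3 (1.26 ± 0.25) and Tgfbr3, a co-receptor (1.40 ± 0.28). The higher count was the less stable side: it was 1 without inflamed sample 2 or 3, 2 without tumour 2 or 4 or inflamed sample 1 or 4, and 3 without tumour 6, and 2 with age as a covariate, while Inhba was called under each of these.

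Slc9a3, Car4 and Slc26a3, which had the 3 largest falls of the named genes, belong to mature colonic absorptive cells. Of 31 genes of these cells, 18 were called lower (58.1%, against 4.21% of all genes), with a median of -0.89. Slc9a3, the apical sodium-proton exchanger, read 5.88, 5.99, 6.32, 5.38 and 4.97 in the tumours and 10.32, 10.89, 10.79 and 10.66 in the inflamed samples. The inflamed samples were in the range of normal mucosa (9.89 to 10.60) or just above it, whereas the tumours were close to the level that absent transcripts reached. The fall was 4.96 ± 0.24 (31.0-fold; adjusted p = 7.5e-08). Car4, a membrane carbonic anhydrase, read 6.96, 7.38, 7.96, 7.28 and 6.36 in the tumours and 12.01, 11.66, 12.04 and 12.54 in the inflamed samples, a fall of 4.87 ± 0.25 (29.3-fold). Slc26a3, the chloride-bicarbonate exchanger, read 8.78, 9.40, 9.86, 7.75 and 5.95 in the tumours and 11.68, 12.03, 12.19 and 11.86 in the inflamed samples. Its level was uneven among tumours, lowest in tumour 6 and highest in tumour 3. It fell by 3.59 ± 0.57, fell by 2.99 without tumour 6 or with the fixed block, and fell by 4.44 without the 3 arrays with high Krt5. Aqp8, a water channel, fell by 3.06 ± 0.38, Slc15a1, a peptide transporter, by 3.05 ± 0.37, and the protease Prss30 by 2.98 ± 0.30. Sectm1b was also among the largest falls (3.19 ± 0.35). Tgm3, a transglutaminase, fell by 2.70 ± 0.40, and fell by 3.34 without the 3 arrays with high Krt5.

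The mean level of the absorptive list was 8.62 to 9.52 in tumours, 10.39 to 10.56 in inflamed samples and 11.08 to 11.41 in normal mucosa. General epithelial markers did not show this: 2 of 16, Cldn4 and Krt18, were called higher, and none lower. An unadjusted p below 0.05 (limma) was found for 7 of the 16 (43.8%, against 19.5% of all genes). Krt18 rose by 0.37 ± 0.09 (adjusted p = 0.0281), a call lost without any one of tumours 1, 4 and 6 and inflamed samples 2, 3 and 4, with adjusted p from 0.0573 to 0.103. Cldn4, a tight junction protein, rose by 1.56 ± 0.36 (adjusted p = 0.0186, but 0.0635 without inflamed sample 2 and 0.0639 without inflamed sample 3). Enzymes that oxidise and conjugate foreign compounds and steroids followed the absorptive genes in part. Of 33 measured, 11 were lower (33.3%, against 4.21% of all genes) and 2 higher (6.06%, against 2.91%). Cyp4f14 fell by 2.23 ± 0.26, Sult1a1 by 1.65 ± 0.26 and Cyp3a13 by 1.65 ± 0.29. Ces1g, a carboxylesterase, was an exception, reading 9.18 to 10.23 in tumours and 6.79 to 7.74 in inflamed samples (2.46 ± 0.41 higher).

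Calls among secretory lineages went mostly toward lower levels. Of 16 goblet cell genes 1 was called higher (6.25%, against 2.91% of all genes), a call lost without any one of 7 arrays. In the other direction 4 were called lower (25%, against 4.21%). They were Atoh1, the transcription factor that sets the secretory lineage (1.17 ± 0.13), Fer1l6 (1.93 ± 0.24), Capn9 (1.09 ± 0.24) and Zg16, a granule lectin (0.60 ± 0.14). Zg16 had an adjusted p of 0.0204, and 0.0643 without inflamed sample 2 or 0.0559 without inflamed sample 4. The enteroendocrine hormone Gcg fell by 1.17 ± 0.13, 1 of 3 lower calls among 12 genes of that lineage (25%). That count was 5 with the random block and 1 without tumour 6 or inflamed sample 2 or 4. Of 11 tuft cell genes 2 were lower (18.2%) and 1 was higher (9.09%): Dclk1 fell by 0.82 ± 0.12, and Avil rose by 0.78 ± 0.14. Among the mucins of membranes and of gastric type, Muc1 rose by 1.89 ± 0.30, from 7.40 to 8.98 in inflamed samples to 9.36 to 10.46 in tumours and 9.52 to 10.26 in normal mucosa, Muc16 rose by 1.23 ± 0.21 and Muc4 fell by 1.01 ± 0.16.

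**Figure D3:**
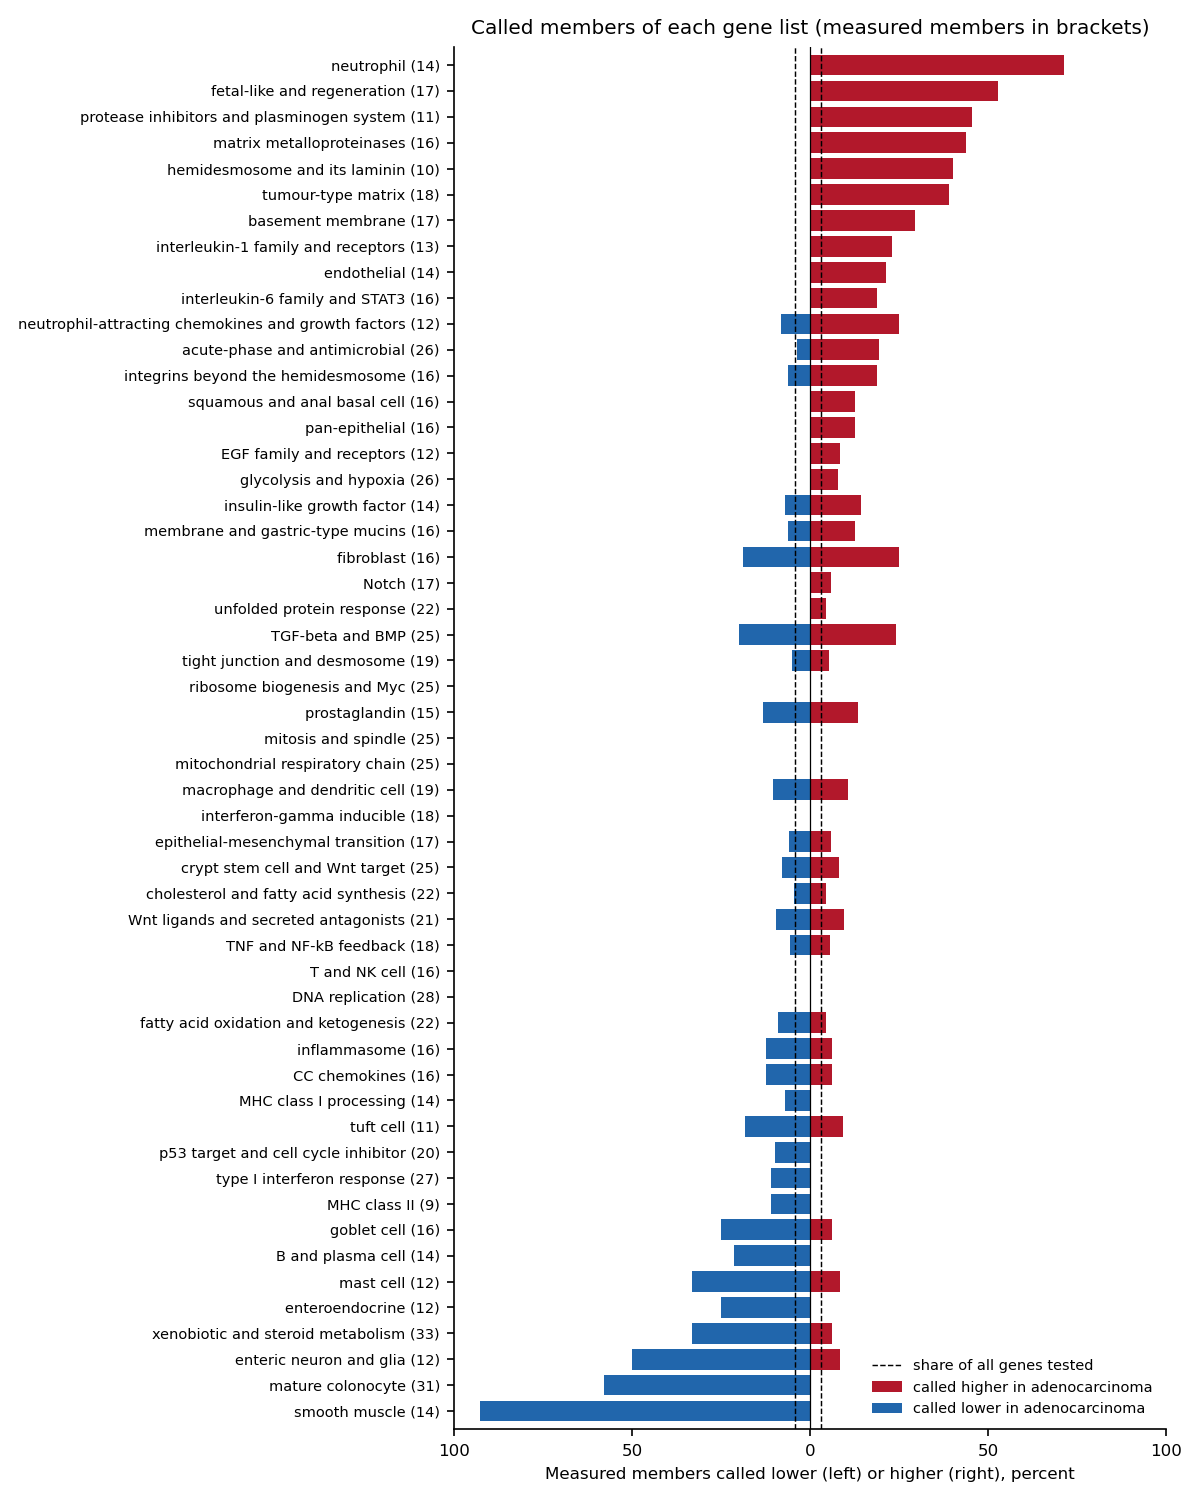
Share of the measured members of each of 53 gene lists that were called lower (blue, to the left) or higher (red, to the right) in adenocarcinoma, in percent, with the number measured in brackets. Dashed lines mark the shares of all 19938 genes, 4.21% lower and 2.91% higher, and smooth muscle and mature colonocyte stand at one end and neutrophil at the other.

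Smooth muscle genes formed the most uniform group. Of 14 measured, 13 were called lower (92.9%), with a median of -2.06, and all 14 were lower in each of the 4 pairs of the same number, against 16.8% of all genes. Myh11, the smooth muscle myosin heavy chain, read 8.25, 8.65, 8.72, 8.63 and 8.52 in the tumours and 10.69, 11.82, 11.36 and 11.18 in the inflamed samples, a fall of 2.70 ± 0.25 (adjusted p = 3.97e-05). Des (desmin) read 7.62, 8.12, 8.12, 8.18 and 8.35 in the tumours and 10.48, 11.90, 11.24 and 11.68 in the inflamed samples and fell by 3.25 ± 0.32. Cnn1 (calponin) fell by 3.05 ± 0.31 and Pgm5 fell by 3.10 ± 0.29. Inflamed sample 1 was the lowest and inflamed sample 2 the highest of its group for all 4 of these genes. Receptors through which nerves drive gut muscle moved with them: Chrm2, a muscarinic receptor, fell by 3.18 ± 0.28 and Tacr2, a tachykinin receptor, by 2.82 ± 0.24.

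Enteric nerve markers fell beside the muscle genes, with 6 of 12 lower (50%, against 4.21% of all genes) and 1 higher (8.33%, against 2.91%). Vip, a peptide of inhibitory motor and secretomotor neurons, read 5.18, 5.04, 5.76, 5.69 and 5.44 in the tumours and 8.02, 9.56, 8.37 and 8.84 in the inflamed samples. The tumours and normal mucosa (5.02 to 5.53) both read near the level of absent transcripts. Vip fell by 3.27 ± 0.26 (adjusted p = 9.44e-06), Chrna3, a ganglionic nicotinic receptor, by 1.99 ± 0.23, and Snap25, a synaptic protein, by 1.78 ± 0.32. The exception was Ret, the receptor tyrosine kinase of enteric neurons, which rose by 0.99 ± 0.15, from 7.39 to 8.05 in inflamed samples to 8.28 to 8.87 in tumours. How much muscle and nerve tissue each section held was not measured apart from these transcripts.

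Mast cell genes were uneven among the inflamed samples. Mcpt1, a mucosal mast cell protease, read 5.22, 6.07, 6.44, 5.998 and 4.62 in the tumours and 6.28, 9.74, 6.55 and 11.02 in the inflamed samples, a difference of -2.73 with an adjusted p of 0.0723 (0.0326 with the random block, 0.0232 without inflamed sample 1 and 0.0425 without inflamed sample 3). Kit, the mast cell and pacemaker cell receptor, fell by 1.00 ± 0.17 (adjusted p = 0.00261). Of 12 mast cell genes 4 were called lower (33.3%, against 4.21% of all genes) and 1, Hdc, higher (8.33%, against 2.91%). Hdc rose by 0.88 ± 0.24 (adjusted p = 0.0423, and over the threshold without any one tumour but number 3 or any one inflamed sample, at 0.0587 to 0.106). The lower count was 8 with the random block and 8 without inflamed sample 1, 1 without inflamed sample 4 and 2 without the 3 arrays with high Krt5.

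Macrophage genes diverged. Arg1, which breaks down arginine and marks a subset of activated myeloid cells, read 9.45, 9.37, 9.02, 9.82 and 9.70 in the tumours and 5.86, 5.55, 5.97 and 5.87 in the inflamed samples. All 5 tumours were high, including those with low Krt5, and normal sample 1 was also high at 9.95 while the other normal samples read 5.71 to 6.02. The rise of 3.66 ± 0.66 (12.7-fold; adjusted p = 0.0042) stood beside falls in genes of resident macrophages. Vsig4, a complement receptor that is not on the list and was picked after its values were seen, read 4.69, 4.22, 5.26, 4.39 and 4.26 in the tumours and 6.18, 7.03, 7.54 and 7.22 in the inflamed samples, a fall of 2.43 ± 0.25 (adjusted p = 9.62e-05). Cd163, the haemoglobin scavenger receptor, fell by 1.15 ± 0.22, while Cd14, a co-receptor for lipopolysaccharide, rose by 0.86 ± 0.17. Of 19 macrophage and dendritic cell genes, 2 were called higher and 2 lower (10.5% each, against 2.91% and 4.21% of all genes). Their median difference was -0.55. Within pairs 12 were lower in all 4 (63.2%, against 16.8% of all genes) and 2 were higher in all 4 (10.5%, against 13.6%). An unadjusted p below 0.05 (limma) was found for 14 of the 19 (73.7%, against 19.5% of all genes). With the number as a fixed block 10 were called lower, among them Adgre1 (-1.05, adjusted p = 0.00199, against 0.0336 between groups, where it was lost without tumour 1, 2 or 6 or inflamed sample 2, 3 or 4 at 0.0751 to 0.107), Cd68 (-0.78, adjusted p = 0.00369), C1qc (-0.88, adjusted p = 0.00269) and Csf1r (-0.61, adjusted p = 0.0333). The lower count was 9 with the 9 arrays alone and no block, and 5 with the random block or without tumour 4. It was 10 without normal sample 1 and 4 without the 3 arrays with high Krt5. Ccl8, a monocyte chemokine made by resident macrophages, fell by 1.86 ± 0.30 and Ccl28, an epithelial chemokine for plasma cells, by 1.06 ± 0.23. These were the 2 lower calls among 16 CC chemokines (12.5%, against 4.21% of all genes), where the fixed block called 6.

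Lymphocyte markers gave few calls. None of 16 T and NK cell genes was called by limma, and 3 had an unadjusted p below 0.05 (18.8%, against 19.5% of all genes). With the fixed block 3 were called lower (Cd4, Nkg7 and Gzmb). The lower count was 4 with the 9 arrays alone and no block, and 6 without normal sample 1. The median difference of these 16 genes was -0.26, and 9 of them were lower in all 4 pairs (56.2%, against 16.8% of all genes). Of 14 B and plasma cell genes, 3 were called lower (21.4%, against 4.21% of all genes), and 5 with the random block. Their differences ran from -1.344 to -0.164, with a median of -0.805. An unadjusted p below 0.05 (limma) was found for 11 of the 14 (78.6%), and 6 were lower in all 4 pairs (42.9%). Tnfrsf17, a receptor of plasma cells, fell by 0.89 ± 0.18 and Cd22 by 0.46 ± 0.09.

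**Figure D4:**
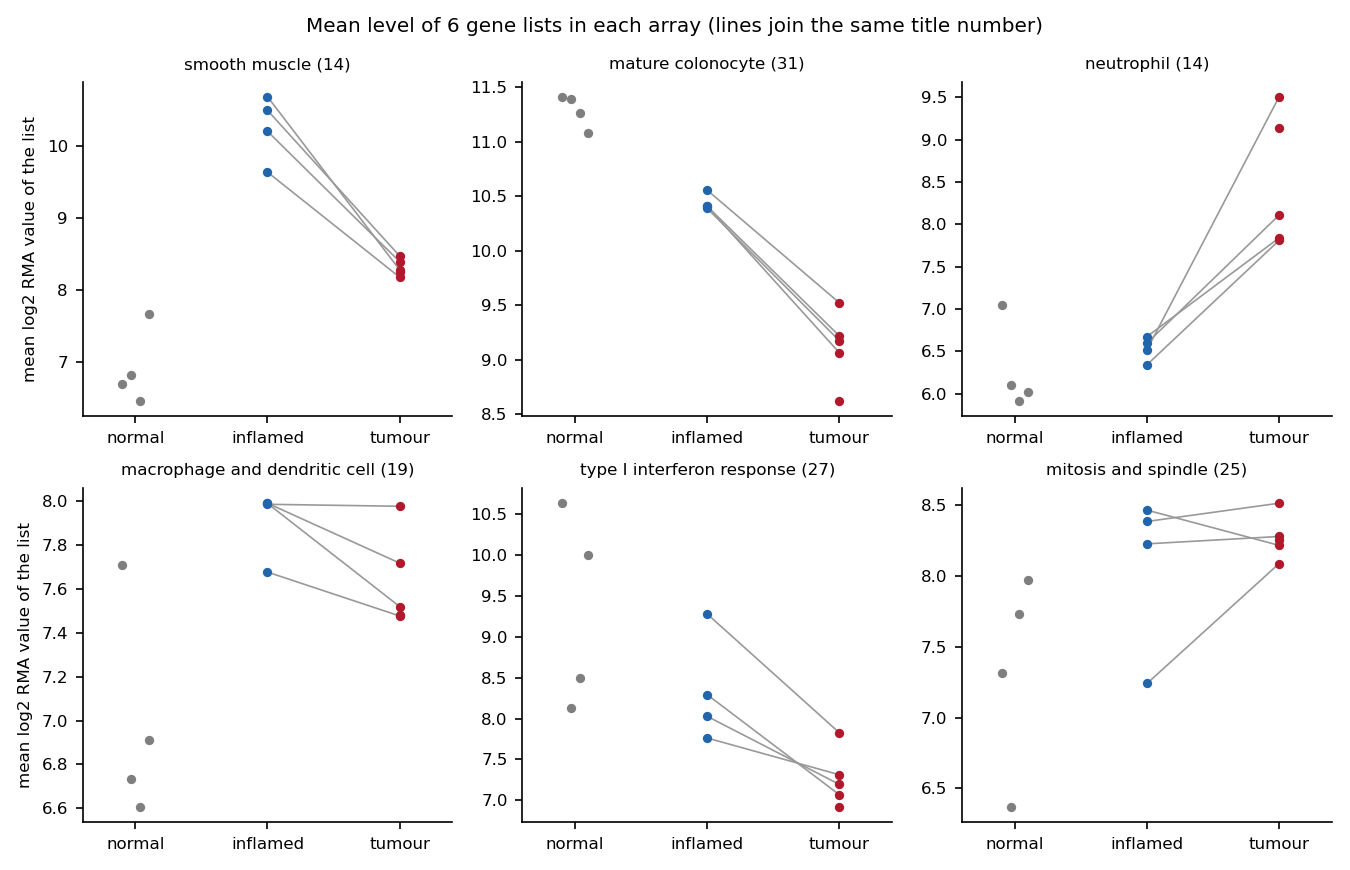
Mean log2 RMA value of the measured genes of 6 lists (number in brackets) in each array, with normal mucosa in grey, inflamed mucosa in blue and adenocarcinoma in red, and grey lines joining the tumour and inflamed array of the same number. All 4 lines fall for smooth muscle, mature colonocyte and type I interferon response, all 4 rise for neutrophil, and those for mitosis and spindle go both ways.

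Genes induced by type I interferon were lower in the tumours within pairs. Type I interferons are cytokines that induce antiviral genes in the cells they reach. Of 27 measured, 3 were called lower in the fit of groups (11.1%, against 4.21% of all genes). The count was 6 with the number as a random block and 20 with the number as a fixed block. The fixed block also leaves out the normal arrays, and the same 9 arrays without a block gave 12. The levels differed much between arrays of the same tissue. Ifit1, an antiviral RNA-binding protein, read 6.71, 5.90, 6.71, 7.80 and 6.45 in the tumours and 8.42, 9.05, 8.01 and 10.70 in the inflamed samples. Number 4 was the highest in both tissues, and tumour minus inflamed within pairs 1 to 4 was -1.71, -3.15, -1.31 and -2.90. The difference between groups was -2.33 (adjusted p = 0.0477), and with the fixed block it was -2.27 (adjusted p = 0.00459). The call between groups was lost without any one of tumours 1, 2, 3 and 6, inflamed samples 1, 2 and 4 and normal sample 4, with adjusted p from 0.054 to 0.152.

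Irf7, the interferon regulatory factor that amplifies the response, read 8.92, 8.67, 9.28, 9.53 and 8.22 in the tumours and 10.24, 10.22, 10.19 and 11.49 in the inflamed samples. It fell by 1.62 ± 0.30 (adjusted p = 0.00482). Oasl2, an antiviral protein of the oligoadenylate synthetase family, differed by -2.18 (adjusted p = 0.0345), with -1.998 (adjusted p = 0.00118) under the fixed block. Its call between groups was lost without tumour 1, 2 or 6 or inflamed sample 2 or 4, with adjusted p from 0.0714 to 0.11. Of the 27 genes, 21 were lower in all 4 pairs (77.8%, against 16.8% of all genes), and the median differences within pairs 1 to 4 were -0.76, -1.21, -0.33 and -1.42. The count of 3 between groups was 5 without normal sample 1, and 1 without tumour 1, 2 or 6, inflamed sample 2 or 4, or the 3 arrays with high Krt5. Normal mucosa was not low in these genes, with Ifit1 at 8.63 to 11.81. Among 18 genes inducible by interferon-γ, none was called between groups by limma, and 3 had an unadjusted p below 0.05 (16.7%, against 19.5% of all genes). With the fixed block 5 were called lower, led by Ido1 (-1.98, adjusted p = 0.00204) and Gbp3 (-0.85, adjusted p = 0.00585). With the 9 arrays alone and no block 3 were called lower. B2m, the light chain of MHC class I, fell by 0.63 ± 0.13.

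**Figure D5:**
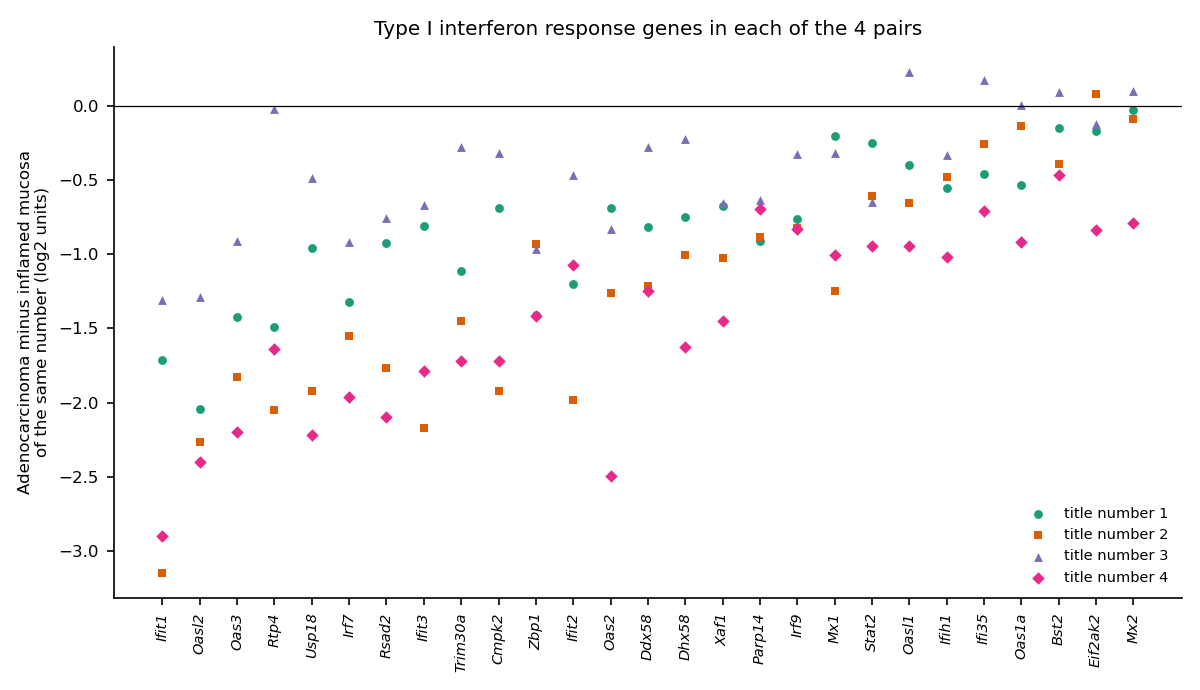
Adenocarcinoma minus inflamed mucosa of the same number, in log2 units (vertical axis), for each of 27 type I interferon response genes (horizontal axis, ordered by their median), with 1 symbol for each of the 4 title numbers. Points lie below 0 in all 4 pairs for 21 genes, and the median fall is smallest in number 3, at -0.33.

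The promoter of Ifit1 is shown because it holds the letters GAAANNGAA, the core of the interferon-stimulated response element, 3 times within a short stretch. The sequence is from RefSeq (GRCm38.p6), 120 bases upstream of the annotated start, 5′ to 3′, with the matches (here all on the reverse strand) in capitals (the first 2 overlap):

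Ifit1 (chr19:34640769-34640888, + strand): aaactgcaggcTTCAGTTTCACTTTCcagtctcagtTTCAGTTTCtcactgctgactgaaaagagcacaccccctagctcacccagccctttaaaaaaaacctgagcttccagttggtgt

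The core was found on either strand in 11 of the 19 type I interferon genes with a promoter entry (57.9%), against 9.76% of 27025 genes. The site GGGANTTTC of NF-κB was found in 3 of 16 TNF and NF-κB feedback genes with an entry (18.8%, against 1.29%) and in 4 of 10 neutrophil chemokine genes (40%, searched after their values were seen), Cxcl1, Cxcl2, Cxcl3 and Csf1. Of these 4, Cxcl2 and Cxcl3 were called higher, Cxcl1 was not called and Csf1 had the call toward lower levels that most of the other fits lost. The CArG box, the site of serum response factor, was found in 1 of 10 smooth muscle genes (Myl9; 10%, against 1.81%). In the TNF and NF-κB list itself 1 of 18 was called higher and 1 lower (5.56% each, against 2.91% and 4.21% of all genes). The higher count was 3 with either block, with the 9 arrays alone or without normal sample 1, and 4 without tumour 3. The promoter of Cxcl2 is given in the same way with its NF-κB site in capitals:

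Cxcl2 (chr5:90903779-90903898, + strand): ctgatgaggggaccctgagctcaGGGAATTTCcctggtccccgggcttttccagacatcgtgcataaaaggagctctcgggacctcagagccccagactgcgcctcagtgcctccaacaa

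Proliferation genes did not separate the tissues. None of 25 genes of mitosis and the spindle was called by limma, and none had an unadjusted p below 0.05, against 19.5% of all genes. Mki67, the proliferation antigen, read 9.91, 9.80, 9.98, 9.99 and 10.01 in the tumours and 9.75, 8.80, 10.35 and 9.87 in the inflamed samples. Inflamed sample 3 lay above the tumours, sample 4 among them, sample 1 just below and sample 2 clearly below, and the difference was 0.25 ± 0.39 (adjusted p = 0.845). Sample 2 was also the lowest for the list as a whole, with a mean of 7.24 against 8.09 to 8.51 in the tumours. Of 28 DNA replication genes none was called, with 1 at an unadjusted p below 0.05 (3.57%). Of 25 subunits of the mitochondrial respiratory chain none was called, also with 1 (4%). Among 25 genes of ribosome biogenesis and Myc none was called, with 8 at an unadjusted p below 0.05 (32%) and 4 called higher with the random block.

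Other programmes gave few calls, with shares to be set against 2.91% of all genes called higher and 4.21% called lower. There were 2 higher among 26 genes of glycolysis and hypoxia (7.69%, and 4 genes with the random block), where Hif1a rose by 0.48 ± 0.09. Fatty acid oxidation gave 1 higher (4.55%) and 2 lower (9.09%) of 22. Cholesterol and fatty acid synthesis gave 1 higher and 1 lower of 22 (4.55% each). The unfolded protein response gave 1 higher of 22 (4.55%), Sec61b (1.03 ± 0.19). The counts were 2 lower of 20 (10%) for p53 targets and cell cycle inhibitors (with 3 higher under the random block) and 1 higher of 17 (5.88%) for Notch. Epithelial-mesenchymal transition gave 1 higher and 1 lower of 17 (5.88% each, and 3 lower with either block or without inflamed sample 1). Insulin-like growth factors gave 2 higher (14.3%) and 1 lower (7.14%) of 14, where Igfbp2 fell by 0.82 ± 0.13. Tight junction and desmosome genes gave 1 higher and 1 lower of 19 (5.26% each), with 6 higher under the random block and 3 without inflamed sample 1. Inflammasome genes gave 1 higher (6.25%) and 2 lower (12.5%) of 16. The interleukin-6 family and STAT3 gave 3 higher of 16 (18.8%, and 5 genes with the random block or without tumour 3). Prostaglandin genes gave 2 higher and 2 lower of 15 (13.3% each), MHC class II 1 lower of 9 (11.1%) and MHC class I processing 1 lower of 14 (7.14%). Endothelial genes gave 3 higher of 14 (21.4%). That count was 1 without tumour 2, 4 or 6 or inflamed sample 1, and 0 without inflamed sample 4 or without the 3 arrays with high Krt5. Small counts were the least stable, since 21 of the 44 counts of 1 or 2 over all lists were 0 without some single array. Without inflamed sample 4, and without several other arrays, this held for both directions of fatty acid oxidation, cholesterol synthesis, epithelial-mesenchymal transition and the TNF list, for the lower tight junction call, and for the higher calls of Notch, the inflammasome, CC chemokines, goblet cells and insulin-like growth factors. The higher count of insulin-like growth factors was also 0 without tumour 2, inflamed sample 3 or the 3 arrays with high Krt5. The p53 count was 0 without tumour 1, 2 or 6 or inflamed sample 2 or 3, and the MHC class II and higher tight junction calls were lost without inflamed sample 2.

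Squamous markers were uneven among the tumours. The mean level of the 16 genes was 8.18 in tumour 2 and 7.45 in tumour 3, 6.46 to 6.86 in tumours 1, 4 and 6, 5.82 to 6.22 in inflamed samples and 9.65 in normal sample 1. Lor and Dsg3 were the 2 genes called, both higher (12.5%, against 2.91% of all genes). Without normal sample 1 or without the 3 arrays with high Krt5, 4 were called. Lor rose by 0.83 ± 0.22 (adjusted p = 0.0338), a call lost with the fixed block (0.0804) and without tumour 1 or 6 or inflamed sample 2, 3 or 4 (0.0623 to 0.112). Dsg3, a desmosomal cadherin, read 7.27, 8.63, 7.91, 7.51 and 7.66 in the tumours and 5.29, 4.75, 4.80 and 4.78 in the inflamed samples, so all tumours were above all inflamed samples whether Krt5 was high or low. Its difference of 2.89 (adjusted p = 0.0398) lost its call without any one of the tumours or inflamed samples, with adjusted p from 0.0574 to 0.104. Trim29, a gene of basal epithelial cells, rose by 2.92 ± 0.62 with tumours at 10.14 to 10.56 and inflamed samples at 6.70 to 8.25. It was also high in normal sample 1, at 10.01, while the other normal samples read 6.28 to 6.78. The part of squamous epithelium in the other differences was not tested beyond leaving out the 3 arrays.

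Some abundant genes varied widely within a tissue. Mptx1, a mucosal pentraxin, read 11.90 in tumour 2, 10.12 in tumour 3 and 5.10 in tumour 6, against 9.59 to 11.15 in the inflamed samples (difference -1.95, adjusted p = 0.467, and -3.80 with 0.00279 without the 3 arrays with high Krt5). Ccl3 read 10.89 in tumour 4 and 6.55 to 7.98 in the other tumours (difference 1.76, adjusted p = 0.207, and 0.0236 without the 3 arrays with high Krt5). Ighg3, an immunoglobulin constant region, read 5.62 in tumour 6 and 7.88 to 9.86 in the others. Among inflamed samples Retnlb, a goblet cell protein, ranged from 9.16 to 11.92, and Penk, the enkephalin precursor, from 8.65 to 11.54. Penk fell by 2.22 ± 0.52 in the tumours (adjusted p = 0.0193, and 0.05 without tumour 6, 0.0678 without inflamed sample 2 and 0.0644 without inflamed sample 4).

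The direction of the called genes was checked in pairs that did not enter the calls. When both arrays of 1 number were left out and genes were called from the rest, 94.7% to 99.5% of the genes called higher and 94% to 99.4% of those called lower had the same sign within the left-out pair. Of all genes, 41.5% to 50.3% were higher in the tumour of a left-out pair. Number 1 had the lowest shares and number 2 the highest. Across all genes the 4 pair differences correlated at 0.41 (numbers 1 and 3) to 0.69 (numbers 2 and 4), which describes genes within these animals and carries no test.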

How the data were processed

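RNA of 13 tissue samples was measured on Affymetrix Mouse Gene 1.0 ST arrays. The values are log2 signals per transcript cluster that the authors deposited after RMA, and Expression Console 1.1 and Partek are named in the submitters' processing notes, with the role of Partek not given there. Precision is limited by the number of arrays. The platform annotation ties 21789 of the 35556 transcript clusters to a single gene and 1621 to several, and does not list 12146. After symbols were updated through Entrez, 19938 genes remained, each with 1 transcript cluster.

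The 3 tissues of 13 arrays were fitted with limma 3.58.1 in R 4.3.3 (lmFit, eBayes), and adenocarcinoma was compared with inflamed mucosa, with Benjamini-Hochberg adjustment over all genes and a threshold of 0.05. The code was tested on simulated data. The labels call the samples separate samples of a tissue but do not say how each relates to an animal. Tumour and inflamed arrays of 1 number have the same sex and age, and once each group's mean was removed they correlated within numbers 1 to 4 at 0.319, 0.198, 0.199 and 0.387. Those of different numbers correlated at -0.318 (tumour 1 with inflamed sample 2) to 0.185 (tumour 6 with inflamed sample 1), so numbers 2 and 3 were only slightly above the highest of these. The numbers were therefore taken as pairs, tumour 6 having none. Fits with the number as a block are given beside some of the results that they change. Counts given above without them also moved. With the fixed and random block, 10 and 10 metalloproteinases, 11 and 13 neutrophil genes and 6 and 9 tumour-type matrix genes were called higher. Of the absorptive genes 20 and 20 were called lower, and of the oxidising and conjugating enzymes 16 and 15. The fixed block used the 9 arrays and the random block all 13, with each normal array alone (consensus correlation 0.296).

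The 53 gene lists hold 922 measured genes. The comparison, its members and the lists were chosen with earlier results of these data known. Genes named are Itga6 and Itgb4, the 15 largest rises and falls among called genes whose groups do not overlap, leading members of the lists, and the 10 most variable abundant genes of each tissue. Genes named beyond these, such as Vsig4, Lgr5, Mki67 and those of neighbouring positions, were chosen after their values were seen. A motif search of the interferon-γ genes is not reported here. Other fits changed the block, the samples, covariates (sex, age, smooth muscle level), the scaling, the filter on dim genes, the clusters and the variance model, or left out single arrays. Leaving out the 3 arrays with high Krt5 was added after the data were seen.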

Additional observations from a re-analysis of the deposited data

Results flagged for a closer look

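Among 334 groups of 4 or 5 arrays, for 167 named genes in 2 tissues, 20 had an array that stood far from the others of its tissue, and chance gives about 1 in 20. Inflamed sample 4 stood apart in interferon genes, at 11.489 for Irf7 (next 10.244) and 11.533 for Oasl2 (next 9.686). It was also apart for Axin2 (8.349), Lama1 (6.4), Lama5 (7.409) and Saa3 (7.279). Tumour 4 stood high for Cxcl3 (8.039, next 6.008), Cd14 (10.458), Gbp3 (7.567) and Wif1 (8.756). Inflamed sample 1 stood apart for Dsg3 (5.285) and Pi16 (6.452), inflamed sample 2 for Col4a1 (8.468) and Egfr (9.516), and inflamed sample 3 for Col1a1 (9.496), Hbegf (7.427, next 8.479) and Reg2 (4.146). Tumour 2 was low for Ret (8.28), tumour 3 was low for Inhba (8.375, next 9.17) and tumour 6 was high for Itgav (11.329).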

How the results depend on the processing

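Of the 1420 genes called, 581 higher and 839 lower, single arrays left out gave 775 to 1652 in all, 302 to 662 higher and 473 to 990 lower. The random replicate block gave 2279 calls (938 higher, 1341 lower) and array weights gave 2296 (981 higher, 1315 lower). Of the 1420 calls, 409 were at least 2-fold. The fixed block of numbers ended the calls of Csf1 and Lor among the 127 called genes named above, and the random block ended none. The smooth muscle level as a covariate left 0 calls, 0 higher, 0 lower and 0 at least 2-fold, and it turned the sign of 25 named genes. Its differences were 0.25 for Adgre1, -0.14 for Avil, 0.0084 for B2m, 0.27 for Ccl8, 0.90 for Cd163, 0.79 for Chrdl1, 0.37 for Chrna3, -0.0089 for Cldn4, 0.59 for Csf1, 0.66 for Ifit1, 0.41 for Igfbp2, 0.0018 for Kit, -0.047 for Krt18, -0.16 for Lamb3, -0.33 for Lor, 0.89 for Lum, 0.39 for Nkd1, 0.58 for Oasl2, 3.47 for Penk, 0.39 for Pi16, -0.10 for Plaur, 0.21 for Rspo3, 1.06 for Snap25, 1.56 for Tgfb3 and 0.18 for Tgfbr3. The covariate nearly coincides with the tissue, and the cause was not tested. No other fit turned the sign of a named called gene. With 5 against 4 arrays, genes near the level that absent transcripts reach, such as Il1a, Saa1 and Vip on their low side, have differences limited by that level.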
